A study of Mus musculus with 18 samples.

Results

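The antioxidant and glutathione enzymes were followed in early mouse embryos, in a series about crotonyl marks on histone lysines. They were chosen by a rule on gene symbols that used no expression value, though it was set with earlier results of these data known. They comprised 56 of the 55335 genes listed for each library. They fell into 22 glutathione S-transferases, 8 glutathione peroxidases, 7 peroxiredoxins, 7 genes of the thioredoxin system, 4 glutaredoxins, 4 genes of glutathione synthesis and reduction, and 4 genes for superoxide dismutases and catalase. Another 8 matching symbols marked as pseudogenes were left out.

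Each of the 18 libraries was made from a tube of 5 to 10 pooled embryos with Smart-seq2, which reads polyadenylated RNA over its whole length, and a single embryo was never measured alone. In the siRNA experiment, embryos carried a control siRNA (siCon) or an siRNA against Echs1 (siEchs1), the mitochondrial enoyl-CoA hydratase that acts on crotonyl-CoA. They were collected at stages labelled E2C and L2C, which gave the groups siCon E2C, siEchs1 E2C, siCon L2C and siEchs1 L2C with 3 libraries each. In the treatment experiment, wild-type (WT) zygotes received DMSO, sodium acetate or sodium crotonate and were taken at the early 2-cell stage (E2C), with 2 libraries in each group. The labels named no strain and no dose, did not spell out L2C, and did not say how the siRNA was delivered. Whether replicates stem from separate matings or cultures was not labelled, so p-values cover only the spread among these libraries, which may be technical.

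Superoxide dismutases turn superoxide into hydrogen peroxide, which catalase, glutathione peroxidases and peroxiredoxins then reduce. Glutathione peroxidases draw on glutathione, which is made by glutamate-cysteine ligase and glutathione synthetase and recycled by glutathione reductase, whereas most peroxiredoxins draw on thioredoxin, which thioredoxin reductases recycle with NADPH. Glutaredoxins remove glutathione from protein thiols, glutathione S-transferases attach it to reactive molecules, and the egg is known to bring a store of glutathione into the embryo.

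Values were FPKM, fragments scaled to exon length and to the mapped fragments of the library, with library totals between 708113 and 1123993 and no read depth given. Echs1 was listed at 0.71 to 5.88 FPKM in the 6 siEchs1 libraries and at 24.4 to 42.6 FPKM in the other 12. Replicates correlated with a Spearman rho across genes of 0.848 to 0.937, except in siEchs1 E2C (0.668 to 0.9), where replicate 3 stood apart. Transcripts encoded by the mitochondrial genome took 13.1% to 17.0% of all FPKM in siCon E2C, 2.82%, 1.69% and 10.3% in siEchs1 E2C, 7.58% to 11.2% in siCon L2C and 0.831% to 2.27% in siEchs1 L2C. Of 22 genes listed for the 2-cell embryo, 21 or 22 reached 1 FPKM in every library. The list joins oocyte genes, such as Zp3, Gdf9 and Zar1, with 2-cell genes such as Obox6 and Zfp352, so this count does not mark the stage. Their summed level was 22105 to 23783 FPKM in siCon E2C, 11759 to 20572 in siEchs1 E2C, 5078 to 6360 in siCon L2C and 16919 to 20898 in siEchs1 L2C. This sum hides opposite directions. At L2C, 9 of the 22 were higher in siEchs1 than in siCon and 8 lower, at an adjusted p under 0.05 in limma. Zp3 was at 44.8 to 93.7 FPKM in siCon L2C and at 2631 to 4409 FPKM in siEchs1 L2C. Obox6 was at 277 to 613 FPKM in siCon L2C and at 5.17 to 38.8 FPKM in siEchs1 L2C. In these bulk samples, fewer cells of a type and less RNA per cell cannot be told apart.

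Of the 56 members, 31 reached 1 FPKM in all 18 libraries, and 5 (Gpx5, Gpx8, Gstm3, Sod3 and Prdx6b) stayed below 1 FPKM in every library. Together they made up 0.725% to 0.822% of all FPKM in siCon E2C, 0.923% to 1.27% in siEchs1 E2C, 0.528% to 0.674% in siCon L2C and 0.732% to 0.764% in siEchs1 L2C. In siCon E2C the highest means were those of the cytosolic peroxiredoxins Prdx2 and Prdx1 and the copper-zinc superoxide dismutase Sod1, whose sum was 71.5% to 75.7% of the member total there and 39.9% to 43.9% in siEchs1 L2C. In siCon L2C the mean of Sod1 lay below those of Gpx1, Sod2 and Gpx4, and in siEchs1 L2C below that of Glrx. Catalase (Cat) lay at 0.07 to 1.46 FPKM over all 18 libraries, and the extracellular superoxide dismutase Sod3 did not exceed 0.09 FPKM.

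**Figure D1:**
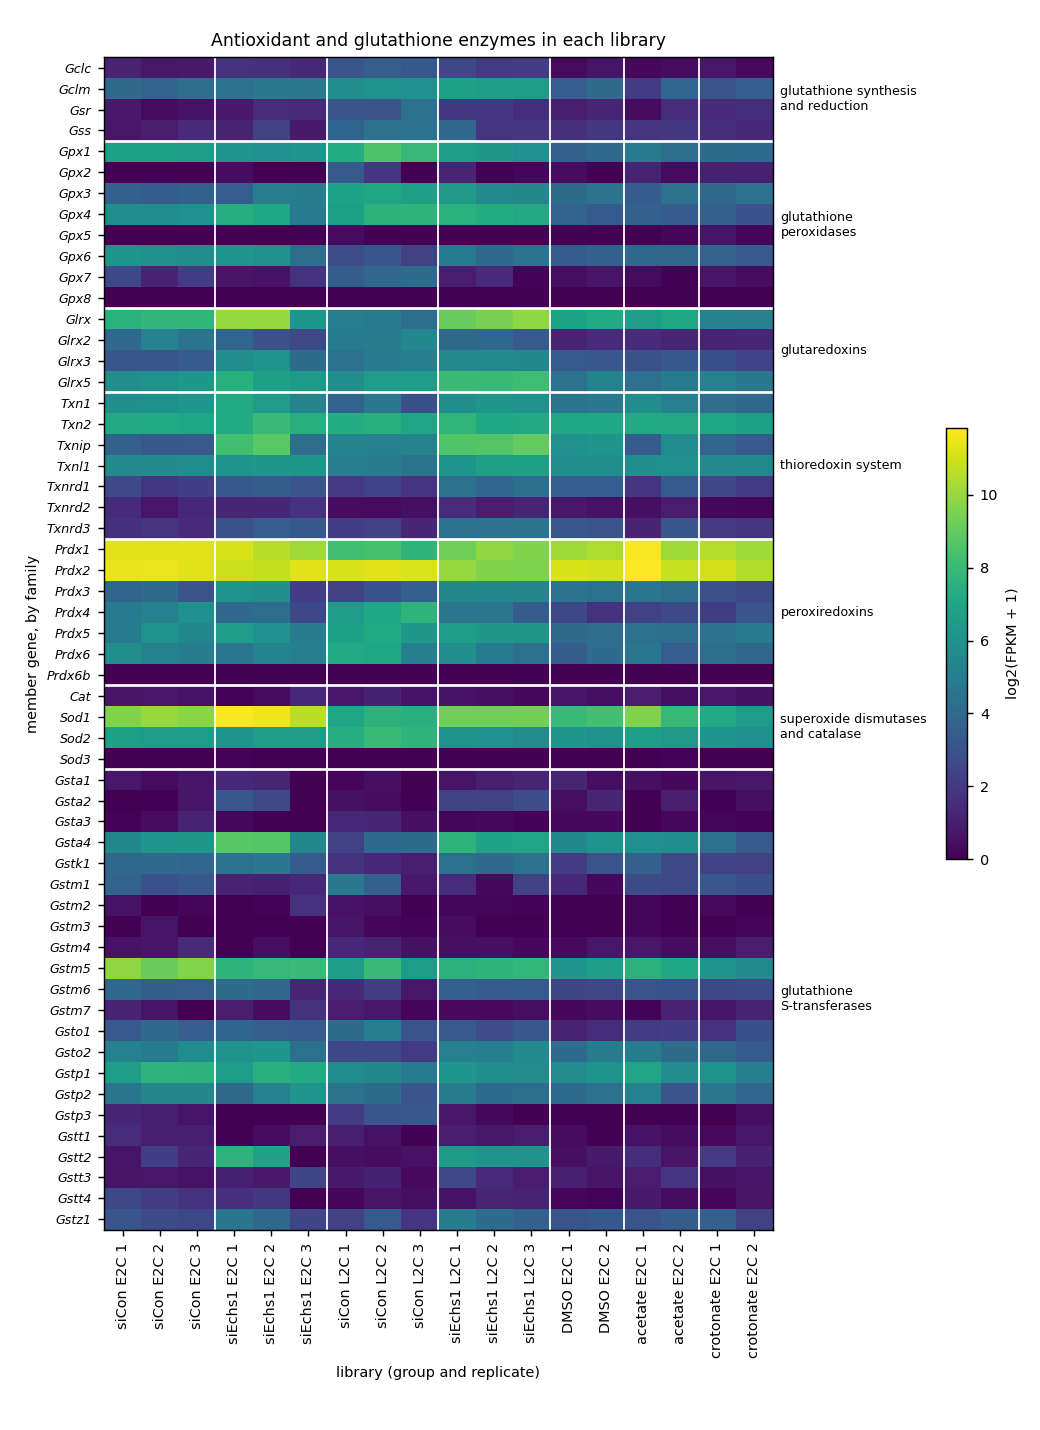
Level of each of the 56 members (rows, by family) in each of the 18 libraries (columns, by group and replicate), coloured by log2(FPKM + 1). Prdx1 and Prdx2 are among the brightest rows, and Glrx, Txnip and Gstt2 are brighter in siEchs1 libraries than in siCon libraries of the same stage, except in replicate 3 of siEchs1 E2C for Glrx and Gstt2.

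**Figure D2:**
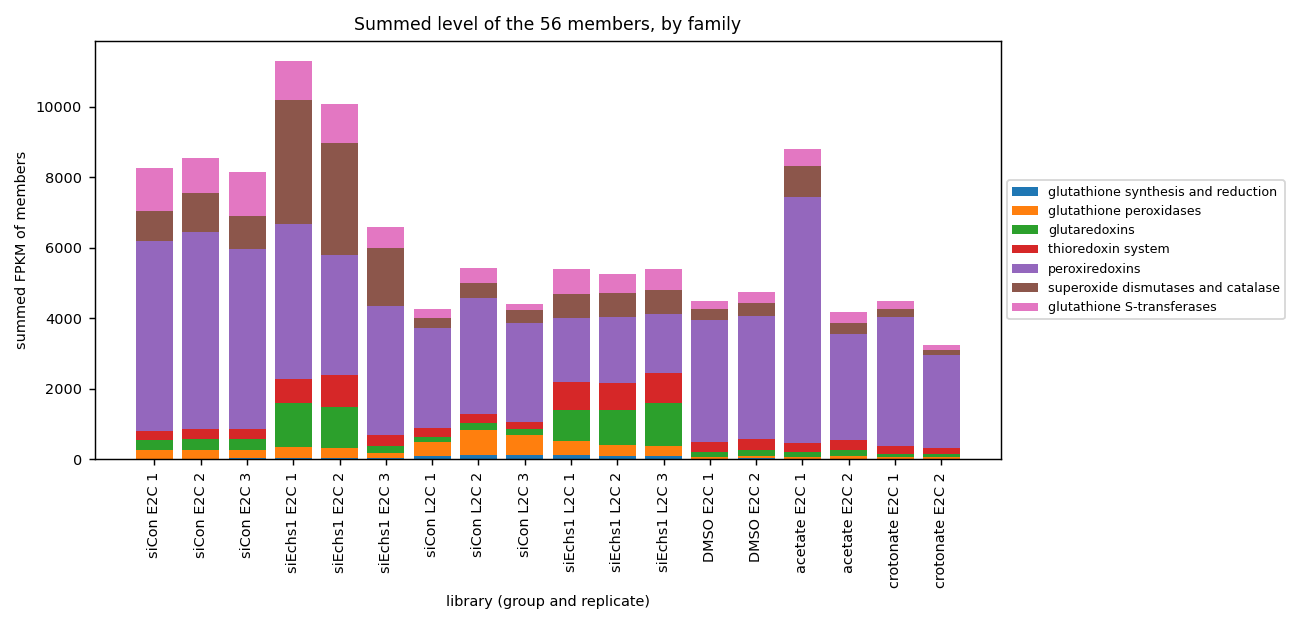
Summed FPKM of the members in each library, stacked by family (bars start at 0, 1 bar per library, no error bar). Peroxiredoxins form the largest block in every library shown. Superoxide dismutases with catalase reach 3539 FPKM at most in siEchs1 E2C and 1126 at most in siCon E2C, against 688 at most in siEchs1 L2C and 451 at most in siCon L2C.

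Promoter sequences are shown for 6 of the members whose RefSeq promoter holds a motif known from this pathway, each of them called in at least 1 comparison below. Gsta3, Gstm7 and Gstp1 also hold one and are not shown, although Gsta3 and Gstp1 were called in a comparison below as well. RefSeq windows of 300 bases (250 before and 50 after a start site, GRCm38.p6) were found for 48 members in 65 windows. There was no entry for Prdx6b, Gsta4, Gstt2, Gclc, Txnl1, Prdx6, Gsr and Sod3. The core of the antioxidant response element, through which the factor NRF2 acts, was searched as TGACNNNGC on both strands. It occurred in 7 of the 65 member windows (10.8%), those of Gsta3, Gstm5, Gstm7, Gclm, Prdx1, Txnrd1 and Sod1, against 12.4% of all 32851 windows. A carbohydrate response element, known from the Txnip promoter, occurred on either strand in the windows of Txnip and Gstp1 and in 0.161% of all windows. The stretches below run 5′ to 3′ along the gene's strand and end at the start site at the latest. Capitals mark the match, read on the opposite strand for Gclm, Prdx1, Txnrd1 and Sod1. A match is a description of the letters, not a bound site.
Gstm5 (chr3:107895772-107895853, plus strand): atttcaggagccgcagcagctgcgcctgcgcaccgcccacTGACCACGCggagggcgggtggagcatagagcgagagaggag
Gclm (chr3:122245383-122245471, plus strand): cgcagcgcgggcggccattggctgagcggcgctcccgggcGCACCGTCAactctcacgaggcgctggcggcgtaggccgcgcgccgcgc
Prdx1 (chr4:116685426-116685514, plus strand): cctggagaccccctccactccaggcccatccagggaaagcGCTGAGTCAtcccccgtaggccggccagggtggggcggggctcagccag
Txnrd1 (chr10:82859074-82859162, plus strand): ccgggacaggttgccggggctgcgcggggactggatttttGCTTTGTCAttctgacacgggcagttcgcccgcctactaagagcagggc
Sod1 (chr16:90220666-90220754, plus strand): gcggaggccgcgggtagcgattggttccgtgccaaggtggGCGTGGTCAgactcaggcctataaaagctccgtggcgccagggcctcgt
Txnip (chr3:96557832-96557928, plus strand): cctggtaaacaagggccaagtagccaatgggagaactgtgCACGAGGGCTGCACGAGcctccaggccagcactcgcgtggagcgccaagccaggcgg

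The first comparison asked how the members changed from E2C to L2C in embryos with the control siRNA. All 4 genes of glutathione synthesis and reduction rose, as did 5 of the 6 glutathione peroxidases tested, whereas 7 of 18 glutathione S-transferases, Prdx1, Sod1, Txn1 and Glrx fell. Of 47 members tested, 14 rose and 14 fell (59.6%), where 50.2% of all 17652 genes tested were called, 35.8% as higher and 14.4% as lower. A gene was called when its adjusted p was under 0.05 in limma, fitted on log2(FPKM + 1) with Benjamini-Hochberg adjustment over all genes tested, and fold changes below are differences on that log2 scale with their standard error. The median fold change was 0.10 for the members and 0.51 for all genes tested. After quantile normalization the all-gene median was -0.01 and 11 members rose and 16 fell. Over all genes tested, 6326 rose and 2544 fell, against 4192 and 4243 after quantile normalization and 7225 and 1892 after rescaling without mitochondrial and ribosomal RNA, which put the all-gene median at 0.74.

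The 4 genes of glutathione synthesis and reduction kept their direction and their calls under both of these scalings. Gclc, the catalytic subunit of glutamate-cysteine ligase, was at 1.18, 0.67 and 0.73 FPKM in siCon E2C and at 7.79, 10.8 and 8.63 FPKM in siCon L2C. All L2C values lay above all E2C values, a rise of 2.44 (SE 0.30, adjusted p = 4.46e-05). Its modifier subunit Gclm rose from 16.0, 12.8 and 18.03 FPKM to 55.8, 67.7 and 62.3 FPKM, by 1.93 (SE 0.27, adjusted p = 0.000113). Glutathione synthetase, Gss, rose from 0.65, 0.93 and 1.71 FPKM to 13.3, 20.5 and 20.4 FPKM, by 3.19 (SE 0.55, adjusted p = 0.000493). Glutathione reductase, Gsr, rose from 0.74, 0.29 and 0.50 FPKM to 7.83, 7.56 and 20.4 FPKM, by 2.97 (SE 0.39, adjusted p = 6.69e-05). None of the 4 overlapped between the stages.

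Among the glutathione peroxidases, the secreted Gpx3 rose most on this scale, from 11.7, 9.90 and 11.7 FPKM to 116, 125 and 101 FPKM (3.25, SE 0.41, adjusted p = 5.30e-05). Gpx6 moved the other way, from 68.7, 60.1 and 57.2 FPKM to 5.85, 8.05 and 3.96 FPKM, and fell by 3.22 (SE 0.48, adjusted p = 0.000161). Gpx1, Gpx4 and Gpx7 rose by 1.24, 1.45 and 1.91, with no overlap between the stages, though the call for Gpx4 (adjusted p = 0.0386) was lost when any library of siCon E2C or siEchs1 L2C, or replicate 2 or 3 of siCon L2C, was left out (adjusted p = 0.0502 to 0.115). Gpx2 rose by 1.70 (adjusted p = 0.0367), with values of 9.03, 2.64 and 0 FPKM at L2C that overlapped those of E2C, where it did not exceed 0.06 FPKM, and this call was lost after quantile normalization (adjusted p = 0.0606) and without any library of siCon E2C or replicate 1 or 2 of siCon L2C (0.0757 to 0.156). Gpx4 encodes the phospholipid hydroperoxide peroxidase, and Gpx7 a member of the family that resides in the endoplasmic reticulum.

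The peroxiredoxins split. Prdx1 fell from 2516, 2520 and 2468 FPKM to 309, 332 and 204 FPKM, by 3.18 (SE 0.32, adjusted p = 1.35e-05). Prdx2, the other abundant cytosolic form, stayed at 2746, 2922 and 2517 FPKM against 2195, 2527 and 2273 FPKM, with a difference of -0.23 (95% interval -0.78 to 0.33, adjusted p = 0.485). The ranges of Prdx2 at the 2 stages overlapped. Prdx4, which acts in the endoplasmic reticulum, rose by 1.75 (adjusted p = 0.0144), a call lost without replicate 1 of siCon E2C or replicate 3 of siCon L2C (adjusted p = 0.059 and 0.0625). Prdx5 rose by 1.31 (adjusted p = 0.0214), a call that was lost after quantile normalization (adjusted p = 0.0526) and without siCon L2C replicate 1 or 2 or siCon E2C replicate 1 or 3 (0.0533 to 0.0965).

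Sod1 fell from 766, 1034 and 843 FPKM to 126, 197 and 168 FPKM, by 2.44 (SE 0.33, adjusted p = 9.18e-05). The mitochondrial manganese enzyme Sod2 rose from 104, 91.3 and 90.9 FPKM to 165, 253 and 208 FPKM (1.10, SE 0.28, adjusted p = 0.00551). The 2 dismutases thus moved in opposite directions, each without overlap. In the thioredoxin system, cytosolic thioredoxin, Txn1, fell from 54.5, 60.3 and 73.3 FPKM to 12.6, 25.5 and 6.39 FPKM, by 2.19 (SE 0.51, adjusted p = 0.00335). Txnl1 and Txnrd2 fell by 0.74 and 0.76, calls that were lost after rescaling without mitochondrial and ribosomal RNA (adjusted p = 0.324 and 0.118) and, among other alternatives, without replicate 1 or 3 of siCon E2C or any library of siCon L2C (0.0555 to 0.128 for Txnl1 and 0.0624 to 0.135 for Txnrd2). Glrx, the cytosolic glutaredoxin, fell from 187, 219 and 222 FPKM to 32.96, 29.6 and 18.5 FPKM, by 2.94 (SE 0.76, adjusted p = 0.00634), while Glrx3 rose by 1.58 (adjusted p = 0.00977), a call that quantile normalization ended (adjusted p = 0.075).

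Of the glutathione S-transferases, Gstm5, Gsto2, Gstk1, Gsta4, Gstm6, Gstp1 and Gstt4 fell, by 2.51, 2.89, 2.61, 2.49, 2.25, 1.94 and 1.72, and all 7 were called as lower under both other scalings as well. The Gsta4 call was lost without replicate 2 or 3 of siCon E2C or replicate 1 of siCon L2C (adjusted p = 0.0506 to 0.078), and the Gstm6 call without replicate 3 of siCon L2C (0.0504). Gstm5, which alone made up 58.3% to 77.6% of the summed transferase level in siCon E2C, went from 948, 578 and 804 FPKM to 96.1, 267 and 91.2 FPKM (adjusted p = 0.000231). Gstk1, the mitochondrial and peroxisomal kappa form, went from 14.99, 15.3 and 13.6 FPKM to 2.37, 1.5 and 1 FPKM (adjusted p = 0.000105). Gstp3 was the transferase called as higher, by 1.85 (adjusted p = 0.000678), from 1.43, 0.99 and 0.61 FPKM to 3.32, 8.05 and 8.38 FPKM.

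Marker sums also differed between the siCon stages. The 8 oviduct markers summed to 27.1 to 32.5 FPKM in siCon E2C and 144 to 203 FPKM in siCon L2C, the 18 cumulus and granulosa markers to 11.3 to 17.7 FPKM and 107 to 148 FPKM, and the 7 blood markers to 59.7 to 77.8 FPKM and 90.5 to 125 FPKM. Most of the cumulus and granulosa sum in siCon L2C was Amhr2, at 4.78, 3.89 and 4.28 FPKM in siCon E2C and 103.57, 91.75 and 145.3 FPKM in siCon L2C. Most of the oviduct sum there was Epcam, at 23.18, 20.61 and 20.48 FPKM and 91.96, 168.76 and 176.54 FPKM. In limma, 1 of the 5 cumulus and granulosa markers tested was called as higher and 4 were not called. Of the 6 oviduct markers tested, 3 were called as higher and 3 were not. The 10 sperm and testis markers went from 48.3 to 90.99 FPKM down to 24.6 to 24.97 FPKM. Of the oviduct markers 3 reached 1 FPKM in each siCon E2C library and 4 to 7 in siCon L2C, with Pax8 at 0 in all 6, and of the cumulus and granulosa markers 4 or 5 and 1 to 5, with Ptx3 and Ereg at no more than 0.13 FPKM. The part of these markers, and of the mitochondrial share given above, in the stage differences was not tested.

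At E2C, the comparison of siEchs1 with siCon asked how the members differed when Echs1 RNA was reduced. The thioredoxin-linked genes Txnip, Txnrd1 and Txnrd3 rose, as did Sod1 and Glrx3, and Glrx2, Gstm5 and Prdx4 fell. These 5 higher and 3 lower calls among 47 members (17%) stood beside 20.3% of all genes tested, 11% as higher and 9.31% as lower, so the share was near the background. The median fold change was 0.27 for the members and 0.15 for all genes tested. The all-gene median was 0.08 after quantile normalization, when 4 members were higher and 5 lower, and 0.31 after rescaling without mitochondrial and ribosomal RNA, when 6 were higher and 3 lower. Over all genes tested, 1934 were higher and 1644 lower, against 1695 and 1882 after quantile normalization and 2704 and 1202 after rescaling.

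Txnip, whose protein binds thioredoxin, was at 11.9, 8.44 and 8.76 FPKM in siCon against 301, 445 and 17.97 FPKM in siEchs1. All siEchs1 values were higher, but replicate 3 lay close to the controls (3.69, SE 0.85, adjusted p = 0.0107). Txnrd3, a selenoprotein thioredoxin reductase, was at 2.01, 2.52 and 1.71 FPKM in siCon against 6.67, 10.6 and 8.56 FPKM in siEchs1 (1.63, SE 0.34, adjusted p = 0.00646). The cytosolic reductase Txnrd1 was at 5.14, 2.79 and 3.56 FPKM in siCon against 8.43, 10.4 and 7.82 FPKM in siEchs1 (1.05, SE 0.32, adjusted p = 0.0348). For both reductases the 3 siEchs1 libraries lay above the 3 siCon libraries and replicate 3 did not stand apart. The Txnrd1 call was lost after quantile normalization (adjusted p = 0.0585).

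Sod1 was at 766, 1034 and 843 FPKM in siCon against 3464, 3089 and 1559 FPKM in siEchs1 (1.55, SE 0.33, adjusted p = 0.00746). Glrx3, a cytosolic glutaredoxin that carries iron-sulfur clusters, was at 8.05, 7.96 and 9.49 FPKM in siCon against 58.2, 69.1 and 17.3 FPKM in siEchs1 (2.16, SE 0.44, adjusted p = 0.00562). Neither overlapped between the groups, and in both the replicate 3 value was the lowest of the siEchs1 group. Gstm5 fell from 948, 578 and 804 FPKM to 204, 232 and 269 FPKM, by 1.70 (SE 0.39, adjusted p = 0.0106). The mitochondrial glutaredoxin Glrx2 fell from 15.8, 37.4 and 22.5 FPKM to 13.7, 6.59 and 5.16 FPKM, by 1.49 (SE 0.42, adjusted p = 0.0251). Prdx4 fell from 28.5, 35.6 and 61.3 FPKM to 15.6, 18.6 and 4.97 FPKM, by 1.70 (SE 0.52, adjusted p = 0.0369). The ranges of these 3 genes did not overlap between the groups.

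A further set of members was several-fold above the controls in replicates 1 and 2 of siEchs1 E2C and below them in replicate 3, and was not called. Glrx was at 997, 994 and 75.6 FPKM against 187, 219 and 222 FPKM in siCon (1.02, adjusted p = 0.37). Gsta4, a transferase for lipid peroxidation products, was at 438, 402 and 43.7 FPKM against 44.2, 73.8 and 77.2 FPKM (1.63, adjusted p = 0.15). Gstt2, a theta-class transferase, was at 204, 111 and 0 FPKM against 0.57, 3.55 and 1.40 FPKM (3.46, adjusted p = 0.103). The mitochondrial peroxiredoxin Prdx3 was at 65.3, 55.3 and 3.65 FPKM against 12.9, 16.3 and 7.78 FPKM (1.01, adjusted p = 0.395). Replicate 3 was also the siEchs1 E2C library with the highest mitochondrial share, 10.3%. Some genes of the 2-cell list were likewise far above the controls in replicates 1 and 2 only. Zp3 was at 3071, 3622 and 35.9 FPKM against 36.3, 36.7 and 27.99 FPKM in siCon. Ooep was at 1618, 1538 and 288 FPKM against 426, 455 and 531 FPKM. Others were not, such as Btg4 at 2568, 2381 and 3186 FPKM against 6055, 4491 and 5778 FPKM. The part of the mitochondrial share and of these marker differences in the members' values was not tested.

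Without replicate 3 of siEchs1 E2C, 13 members were called as higher and 3 as lower, beside 4052 and 2444 of all 17652 genes tested. Gstt2 was then higher by 5.88 (adjusted p = 7.01e-07), Gsta4 by 2.71 (0.000997), Gsta2 by 2.68 (6.81e-05), Glrx by 2.25 (8.17e-05), Prdx3 by 2.25 (0.000626) and Gpx4 by 1.27 (0.00606). Glrx5 and Gstz1 were also newly called as higher and Gpx7 as lower, and the Prdx4 call was lost (adjusted p = 0.055). Without replicate 2 or replicate 3 of siCon E2C, 5 members were called, beside 902 higher and 1080 lower or 882 and 1007 of all genes tested, and the calls for Glrx2, Txnrd1 and Prdx4 were lost (adjusted p = 0.0689 to 0.143). The Txnrd1 call was also lost without replicate 1 or 2 of siEchs1 E2C (0.0579 and 0.117), the Glrx2 call without replicate 2 of that group (0.0858) and the Prdx4 call without replicate 1 of siCon E2C (0.0542). When the 6 E2C libraries were fitted alone, 4 members were called, beside 532 higher and 821 lower of all genes tested, and the calls for Sod1, Glrx3, Txnip, Txnrd1, Prdx4 and Glrx2 were lost (adjusted p = 0.0573 to 0.102), while Gstm1 and Gstp3 were newly called as lower. The 4 genes of glutathione synthesis and reduction gave differences of 0.42 to 0.69, and none was called in either fit.

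**Figure D3:**
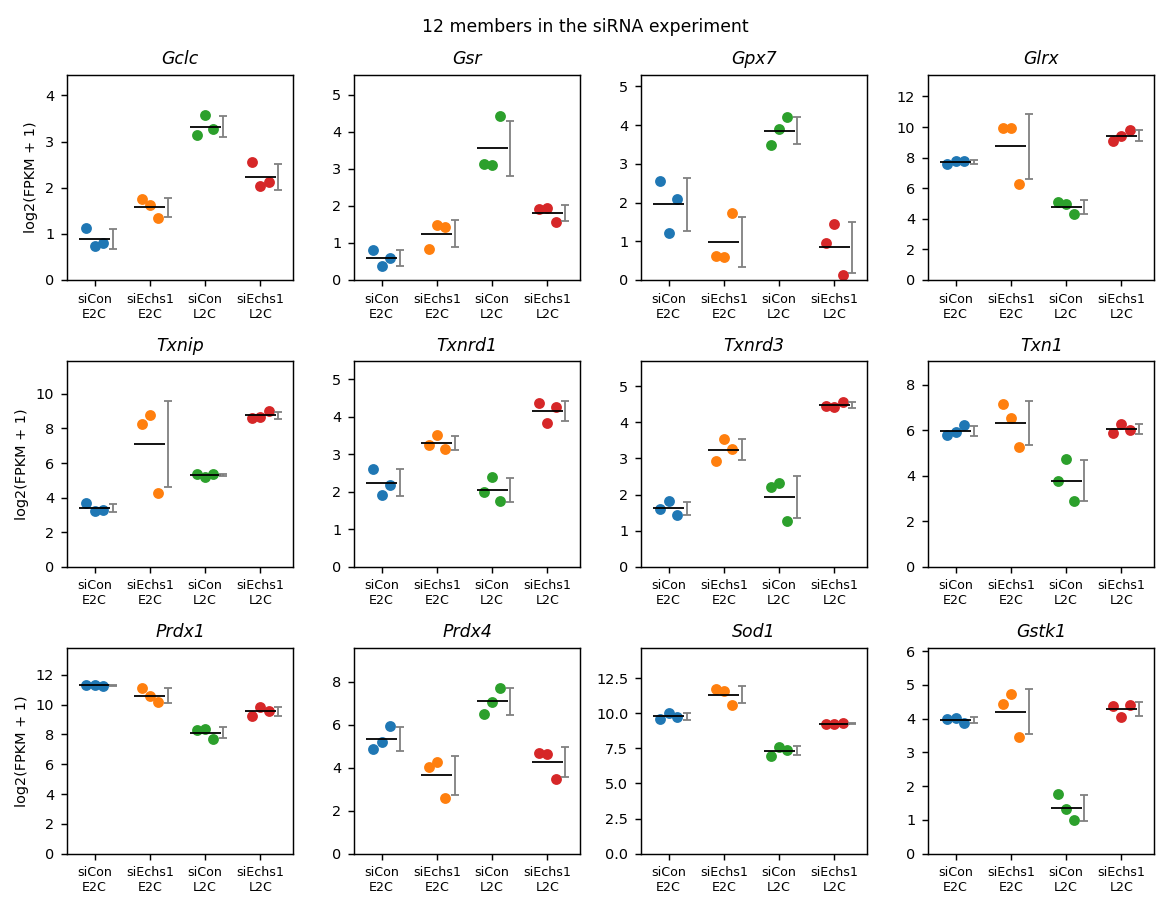
Values of 12 members in the 4 siRNA groups, as log2(FPKM + 1), with 1 point per library, a line at the group mean and a grey bar of ± 1 SD beside it (n = 3). Replicate 3 of siEchs1 E2C, the rightmost point of its group, lies far below the other siEchs1 E2C points for Glrx and Txnip, while every siEchs1 point of Txnrd1 and Txnrd3 lies above the siCon points of its stage.

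At L2C, siEchs1 embryos differed from siCon embryos in most of the members tested. The thioredoxin system was higher in 6 of 7 genes, glutathione synthesis and reduction lower in 3 of 4, and the other families split. Of 47 members, 19 were higher and 12 lower (66%), where 48.8% of all genes tested were called, 21.9% as higher and 26.9% as lower. The median fold change was 0.64 for the members and -0.08 for all genes tested. With values rescaled without mitochondrial and ribosomal RNA, 19 were higher and 11 lower, and after quantile normalization 20 and 12. Over all genes tested, 3866 were higher and 4745 lower, against 4008 and 4614 after rescaling and 4375 and 4241 after quantile normalization.

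In the thioredoxin system, Txnip was at 39.6, 36.3 and 39.99 FPKM in siCon against 394, 407 and 510 FPKM in siEchs1 (3.46, SE 0.85, adjusted p = 0.00529). Txnrd3 was at 3.58, 4 and 1.41 FPKM in siCon against 20.6, 20.5 and 22.8 FPKM in siEchs1 (2.55, SE 0.34, adjusted p = 0.000146). Txnrd1 was at 2.95, 4.21 and 2.40 FPKM in siCon against 19.5, 13.3 and 18.1 FPKM in siEchs1 (2.11, SE 0.32, adjusted p = 0.000273). In all 3 genes the siEchs1 libraries lay close together and far above the controls. Txn1 was at 12.6, 25.5 and 6.39 FPKM in siCon against 57.8, 77.0 and 63.2 FPKM in siEchs1 (2.26, SE 0.51, adjusted p = 0.00304). The thioredoxin-like gene Txnl1 and the mitochondrial reductase Txnrd2 were higher by 1.63 (adjusted p = 0.000613) and 0.79 (adjusted p = 0.0364). Mitochondrial thioredoxin, Txn2, was the member of the system not called, at 158, 177 and 119 FPKM against 213, 134 and 139 FPKM (0.08, 95% interval -0.60 to 0.77).

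Glutathione synthesis and reduction went the other way. Gclc was at 7.79, 10.8 and 8.63 FPKM in siCon against 4.90, 3.08 and 3.37 FPKM in siEchs1, and was lower by 1.08 on the log2 scale (-1.08, SE 0.30, adjusted p = 0.00988). Gsr was at 7.83, 7.56 and 20.4 FPKM in siCon against 2.76, 2.83 and 1.94 FPKM in siEchs1 (-1.75, SE 0.39, adjusted p = 0.00271). Gss was at 13.3, 20.5 and 20.4 FPKM in siCon against 14.03, 2.48 and 2.68 FPKM in siEchs1 (-1.70, SE 0.55, adjusted p = 0.0232). The Gss ranges overlapped through replicate 1 of siEchs1, and leaving out replicate 2 or 3 of either L2C group ended its call (adjusted p = 0.0671 to 0.0986). Gclm was not called, at 55.8, 67.7 and 62.3 FPKM against 109, 93.6 and 88.1 FPKM (0.64, adjusted p = 0.069), although its ranges did not overlap.

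Glrx was at 32.96, 29.6 and 18.5 FPKM in siCon against 551, 674 and 894 FPKM in siEchs1 (4.67, SE 0.76, adjusted p = 0.000421). The gene lies on the plus strand of chromosome 13, at positions 75839868 to 75850154 of GRCm38. Glrx5, a mitochondrial glutaredoxin of iron-sulfur cluster assembly, was at 57.5, 92.7 and 91.7 FPKM in siCon against 267, 256 and 283 FPKM in siEchs1 (1.76, SE 0.34, adjusted p = 0.00113). Glrx2 was lower, at 27.3, 30.8 and 43.5 FPKM in siCon against 15.9, 15.1 and 9.32 FPKM in siEchs1 (-1.28, adjusted p = 0.0226). Glrx3 was not called (0.75, adjusted p = 0.176). So 2 of the 4 glutaredoxins were called as higher and 1 as lower.

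Of the 18 glutathione S-transferases tested, 7 were higher and 2 lower. Gstt2 was at 0.40, 0.33 and 0.47 FPKM in siCon against 87.6, 69.5 and 68.1 FPKM in siEchs1 (5.76, SE 1.42, adjusted p = 0.00535). Gsta4 was at 4.04, 15.4 and 17.1 FPKM in siCon against 207, 113 and 121 FPKM in siEchs1 (3.64, SE 0.76, adjusted p = 0.00205). Gstk1 was at 2.37, 1.5 and 1 FPKM in siCon against 19.7, 15.4 and 20.4 FPKM in siEchs1 (2.92, SE 0.36, adjusted p = 0.000108). None of these overlapped. Gsto2, an omega-class transferase, was at 4.91, 4.84 and 3.09 FPKM in siCon against 35.1, 34.0 and 49.1 FPKM in siEchs1 (2.94, adjusted p = 0.000336). Gsta2, Gstm6 and Gstz1 were higher by 2.20, 2.07 and 1.81 (adjusted p = 0.0117, 0.0184 and 0.0183). Gstp3 was lower, at 3.32, 8.05 and 8.38 FPKM in siCon against 0.63, 0.21 and 0 FPKM in siEchs1 (-2.51, adjusted p = 0.000154). Gsta3 was lower by 0.86 on the log2 scale (-0.86, adjusted p = 0.0296), a call that quantile normalization ended (adjusted p = 0.121). The abundant transferases Gstm5 (0.66), Gstp1 (0.53) and Gstp2 (0.52) were not called. The alpha, mu, pi and theta genes are clusters of close relatives whose reads the authors' counting could have split, so their single values are uncertain.

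The glutathione peroxidases divided. Gpx1 was at 157, 374 and 241 FPKM in siCon against 96.2, 77.9 and 62.7 FPKM in siEchs1 (-1.63, SE 0.33, adjusted p = 0.00167). Gpx7 was at 10.2, 13.8 and 17.4 FPKM in siCon against 0.93, 1.72 and 0.09 FPKM in siEchs1 (-3.02, SE 0.47, adjusted p = 0.000337). Gpx6 was higher, at 5.85, 8.05 and 3.96 FPKM in siCon against 29.3, 15.8 and 21.6 FPKM in siEchs1 (1.74, SE 0.48, adjusted p = 0.00934). None of these 3 overlapped. Gpx4 was at 105, 203 and 205 FPKM in siCon against 185, 162 and 140 FPKM in siEchs1, a difference of -0.02 (95% interval -1.18 to 1.14).

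Among the peroxiredoxins, Prdx1 was at 309, 332 and 204 FPKM in siCon against 605, 931 and 766 FPKM in siEchs1 (1.45, SE 0.32, adjusted p = 0.00265). Prdx2 was at 2195, 2527 and 2273 FPKM in siCon against 1013, 776 and 751 FPKM in siEchs1 (-1.47, SE 0.26, adjusted p = 0.000621). The 2 abundant cytosolic forms thus differed in opposite directions, each without overlap. Prdx3 was at 3.81, 6.94 and 11.4 FPKM in siCon against 44.5, 42.2 and 40.2 FPKM in siEchs1 (2.47, SE 0.79, adjusted p = 0.0212). Prdx4 was at 89.0, 133 and 209 FPKM in siCon against 24.9, 23.9 and 10.2 FPKM in siEchs1 (-2.82, SE 0.52, adjusted p = 0.000917). Prdx6, a peroxiredoxin that uses glutathione, was lower (-1.42, adjusted p = 0.0447), but its ranges overlapped and rescaling ended the call (adjusted p = 0.0547).

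Sod1 and Sod2 again moved apart. Sod1 was at 126, 197 and 168 FPKM in siCon against 601, 604 and 637 FPKM in siEchs1 (1.93, SE 0.33, adjusted p = 0.000582). Sod2 was at 165, 253 and 208 FPKM in siCon against 64.4, 62.5 and 50.7 FPKM in siEchs1 (-1.79, SE 0.28, adjusted p = 0.000328). Neither overlapped between the groups. Cat did not pass the filter on low values, at 0.47 to 1.12 FPKM in siCon against 0.18 to 0.47 FPKM in siEchs1.

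Some of these L2C calls were lost when 1 library was left out. The Prdx3 call was lost without replicate 1 or 2 of either L2C group (adjusted p = 0.0506 to 0.0776), and the Gstm6 and Gstz1 calls without replicate 1 or 3 of siCon L2C or replicate 1 of siEchs1 L2C (0.0501 to 0.0758 and 0.0549 to 0.0798). The Txnrd2 call was lost without any library of siCon L2C or replicate 1 or 3 of siEchs1 L2C (0.0579 to 0.121), and the Glrx2 call without replicate 3 of either L2C group (0.0799 and 0.0939). The Gsta3 call was lost without replicate 1 or 2 of siCon L2C or any library of siEchs1 L2C (0.0624 to 0.097), and the Prdx6 call without replicate 1 or 2 of siCon L2C, replicate 2 or 3 of siEchs1 L2C, replicate 2 of siEchs1 E2C or any siCon E2C library (0.0518 to 0.173).

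Markers of other cells also differed between the L2C groups. The 7 blood markers summed to 90.5 to 125 FPKM in siCon L2C and 3.43 to 18.7 FPKM in siEchs1 L2C, nearly all from Hba-a1 and Hba-a2, with 1 or 2 of the 7 at 1 FPKM. The 18 cumulus and granulosa markers summed to 107 to 148 FPKM and 16.8 to 23.4 FPKM, with 1 to 5 at 1 FPKM. Ptx3 and Ereg were at 0 to 0.12 FPKM in the L2C libraries. Amhr2 made up most of the siCon L2C sum but was at 6.47, 11.7 and 1.49 FPKM in siEchs1 L2C. The 8 oviduct markers summed to 144 to 203 FPKM and 10.5 to 43.0 FPKM, with 3 to 7 at 1 FPKM and Pax8 at 0 to 0.06 FPKM. Epcam made up most of the siCon L2C sum. In siEchs1 L2C it was at 10.8, 19.95 and 1.63 FPKM, beside Krt8 at 16.6, 7.67 and 2.11 FPKM. The 10 sperm and testis markers summed to 24.6 to 24.97 FPKM and 46.5 to 89.5 FPKM, with 2 or 3 at 1 FPKM. At E2C the blood markers summed to 59.7 to 77.8 FPKM in siCon against 2.74 to 10.5 FPKM in siEchs1. The part of these genes' source cells in the members' differences was not tested.

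**Figure D4:**
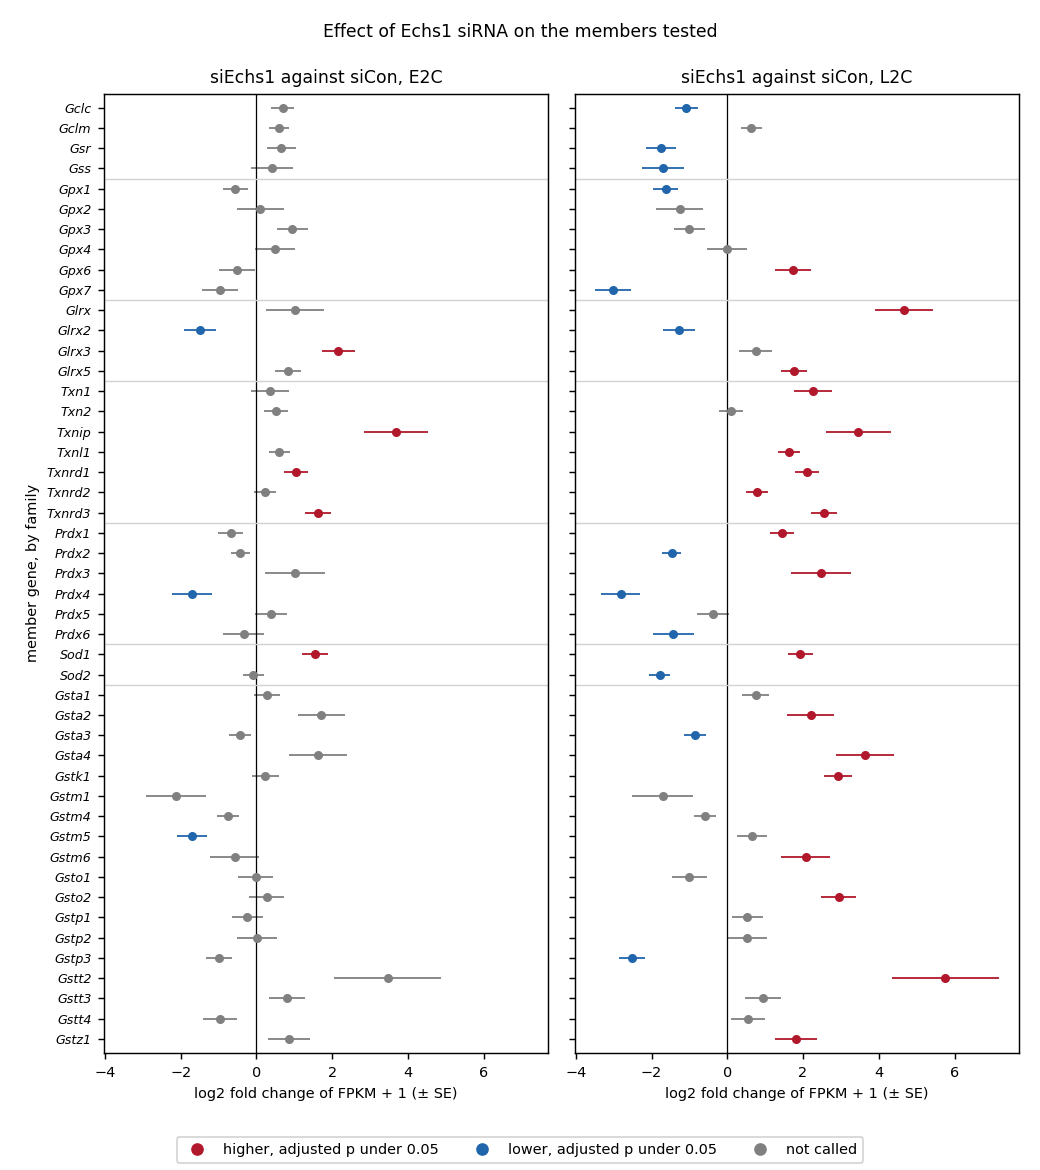
Fold change of siEchs1 against siCon at E2C (left) and L2C (right) for the 47 members tested, as a difference in log2(FPKM + 1) with its standard error, ordered by family. At E2C 8 points are coloured as called and at L2C 31 are, with the thioredoxin genes right of 0 and Gclc, Gsr and Gss left of 0 at L2C.

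Whether the siEchs1 effect differed between L2C and E2C was tested directly, with the 12 libraries in a single fit. It was more positive at L2C for 6 members and more negative for 5 of 47 (23.4%), beside 17.2% of all genes tested, 5.65% as more positive and 11.6% as more negative. After quantile normalization it was more positive for 10 and more negative for 5, and after rescaling for 6 and 7. Over all genes tested the counts were 997 and 2042, against 1600 and 1558 after quantile normalization and 849 and 2455 after rescaling. Without replicate 3 of siEchs1 E2C, 16 members were called, beside 1289 more positive and 2772 more negative of all genes tested, and without replicate 3 of siCon E2C, 6, beside 495 and 1071. The more positive members were Glrx, Gstk1, Gsto2, Gstm5, Gpx6 and Prdx1, and the more negative were Gsr, Gclc, Gpx3, Sod2 and Gstp3. For the thioredoxin system the difference was called for none of its 7 genes, among them Txnip (-0.23, 95% interval -2.84 to 2.38), Txnrd1 (1.06, 95% interval 0.08 to 2.03) and Txnrd3 (0.92, 95% interval -0.12 to 1.96).

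The stage comparison was also made within siEchs1 embryos. From E2C to L2C in siEchs1, Gclm, Glrx5 and Txnrd3 rose and Sod1, Prdx1 and Prdx2 fell, 6 of 47 members (12.8%) beside 14.6% of all genes tested, 11.8% as higher and 2.73% as lower. Over all genes tested 2090 rose and 482 fell, against 1075 and 785 after quantile normalization. With the 6 siEchs1 libraries fitted alone, 1 member was called, beside 516 higher and 50 lower of all genes tested. Gclm rose from 20.1, 26.7 and 25.6 FPKM to 109, 93.6 and 88.1 FPKM (1.96, SE 0.27, adjusted p = 0.000928). Sod1 fell from 3464, 3089 and 1559 FPKM to 601, 604 and 637 FPKM, by 2.05 (SE 0.33, adjusted p = 0.00197). Prdx2 fell from 1981, 1710 and 2447 FPKM to 1013, 776 and 751 FPKM, by 1.27 (SE 0.26, adjusted p = 0.0066). These 3 did not overlap between the stages. Glrx5 (1.19) and Txnrd3 (1.23) rose and Prdx1 fell by 1.04 with adjusted p of 0.0332, 0.0293 and 0.0454. Quantile normalization ended the calls for Prdx1, Prdx2 and Txnrd3 (adjusted p = 0.233, 0.121 and 0.13). The calls for Glrx5, Prdx1 and Txnrd3 were each lost without any 1 library of siEchs1 L2C (0.0833 to 0.0992, 0.0684 to 0.169 and 0.0778 to 0.0859), and those for Glrx5 and Prdx1 also with the replicate block (0.0646 and 0.0655). Leaving out replicate 2 of siEchs1 E2C ended the Glrx5 and Prdx1 calls (0.0774 and 0.0695), leaving out replicate 1 the Prdx1 and Txnrd3 calls (0.127 and 0.0821), leaving out replicate 2 or 3 of siCon E2C the Glrx5 call (0.0529 and 0.0502), and leaving out any library of siCon E2C or replicate 1 or 2 of siCon L2C the Prdx1 call (0.0576 to 0.0739).

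Means over the 4 siRNA groups are given for 5 members, chosen after their values were seen. Gstk1 had a mean of 14.7 ± 0.92 FPKM (SD, n = 3) in siCon E2C, 18.7 ± 7.98 in siEchs1 E2C, 1.62 ± 0.69 in siCon L2C and 18.5 ± 2.67 in siEchs1 L2C. Txn1 had means of 62.7 ± 9.61, 91.4 ± 53.2, 14.8 ± 9.74 and 66.0 ± 9.91 FPKM in the same order. Gsr had means of 0.51 ± 0.23, 1.42 ± 0.57, 11.9 ± 7.35 and 2.51 ± 0.50 FPKM. For these 3 the siEchs1 L2C mean lay nearer to the siCon E2C mean than to the siCon L2C mean. Gclm had means of 15.6 ± 2.64, 24.2 ± 3.52, 61.9 ± 5.92 and 96.8 ± 10.7 FPKM, and Gpx4 of 59.2 ± 2.01, 106 ± 69.95, 171 ± 57.4 and 163 ± 22.7 FPKM. For these 2 it lay nearer to the siCon L2C mean. How many of all members or of all genes lay nearer to either mean was not counted. In other members the siEchs1 L2C mean lay beyond both siCon means. For Glrx the means were 209 in siCon E2C, 27.0 in siCon L2C and 706 FPKM in siEchs1 L2C, and for Prdx2 2729, 2332 and 847 FPKM. These comparisons share their control libraries, so the values are set side by side and no overlap between them was computed.

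Genes of the same pathways outside the symbol rule were counted in 6 lists, to be read beside the 21.9% of all genes tested called as higher and 26.9% called as lower at L2C. At L2C, 2 of 11 genes of NRF2 control were higher in siEchs1 and 5 lower, with Bach1 (-1.87), a repressor at antioxidant response elements, Cul3 (-2.85), a ubiquitin ligase subunit, and Mafk (-2.13), a small Maf partner, having the smallest adjusted p. Of 14 known NRF2 targets, 5 were higher and 5 lower. The 3 named by the smallest adjusted p were all lower: sulfiredoxin, Srxn1 (-2.24), haem oxygenase, Hmox1 (-2.36) and ferritin light chain, Ftl1 (-1.46). Values of other targets lay the other way, such as Cbr1 at 11.6, 7.59 and 5.10 FPKM in siCon L2C and 41.8, 32.1 and 27.2 FPKM in siEchs1 L2C. Hmox1 was at 54.9, 51.8 and 18.3 FPKM in siCon L2C and at 7.23, 5.53 and 6.90 FPKM in siEchs1 L2C. Of 16 genes of NADPH supply, 7 were higher and 4 lower, with Mthfd1 (2.56) and the cytosolic isocitrate dehydrogenase Idh1 (2.41) higher and the pentose phosphate enzyme Pgd (-1.83) lower. The median fold changes of these lists were -0.88, 0.37 and 0.44, beside -0.08 for all genes tested.

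Of 20 other genes of glutathione use and breakdown, 7 were higher and 5 lower at L2C, led by the breakdown enzymes Ggt1 (2.97) and Chac2 (2.63) and the microsomal transferase Mgst3 (2.31). Of 19 other thiol repair genes, 5 were higher and 3 lower, with the disulfide isomerases Txndc5 (3.77) and Pdia6 (2.59) higher and the sestrin Sesn2 (-3.84) lower. Sesn2 was at 128, 113 and 181 FPKM in siCon L2C and at 11.4, 13.4 and 4.11 FPKM in siEchs1 L2C. Of 8 genes of selenoprotein synthesis, 4 were higher and 4 lower, with Secisbp2 (1.69) and Pstk (3.40) higher and Sephs2 (-1.37) lower. The medians of these 3 lists were 0.23, 0.58 and 0.24. At E2C the counts were 0 higher and 1 lower for NRF2 control, 1 and 1 for its targets, 3 and 0 for NADPH supply, 2 and 0 for glutathione use, 5 and 1 for thiol repair and 2 and 0 for selenoprotein synthesis, beside 11% and 9.31% of all genes tested. From E2C to L2C in siCon they were 7 and 2, 5 and 1, 6 and 1, 8 and 4, 10 and 3, and 4 and 1, beside 35.8% and 14.4% of all genes tested.

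The treatment experiment asked what sodium crotonate did compared with DMSO and with sodium acetate, the shorter acid given as a salt in the same way. Crotonate and acetate differ in the acid, which has a longer and unsaturated carbon chain in crotonate. Of 38 members tested, Glrx was called as lower in crotonate than in DMSO (1 of 38, 2.63%, beside 0.529% of all 13789 genes tested and 0.319% in that direction), none was called between acetate and DMSO (beside 0.0653%), and Glrx and Prdx3 were called as lower in crotonate than in acetate (5.26% beside 1.86%, of which 0.841% were lower). All 3 pairs of agents were compared, each adjusted over all genes tested. In limma, 7, 3 and 6 members had an unadjusted p under 0.05 in these comparisons, and the 3 calls were all close to the threshold.

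Glrx was at 115 and 144 FPKM with DMSO, 99.2 and 128 FPKM with acetate and 37.5 and 35.1 FPKM with crotonate. Both crotonate libraries lay below the other 4 (-1.80, SE 0.28, adjusted p = 0.04999 against DMSO, and -1.61, SE 0.28, adjusted p = 0.0425 against acetate). Prdx3 was at 21.6 and 19.9 FPKM with DMSO, 24.2 and 18.6 FPKM with acetate and 6.59 and 5.37 FPKM with crotonate (-1.64, adjusted p = 0.0714 against DMSO, and -1.68, SE 0.32, adjusted p = 0.0493 against acetate). Its crotonate values again lay below the other 4. Each of these calls was lost under quantile normalization and under rescaling, with adjusted p of 0.0505 to 0.0748, and with no filter on low values (0.196 to 0.248). Leaving out any DMSO or crotonate library, which leaves 1 in its group, also ended each of them. The Glrx difference was then -1.96 to -1.64 against DMSO and -1.66 to -1.56 against acetate. That of Prdx3 against acetate was -1.81 to -1.55.

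Other members had crotonate values that lay below both DMSO values without a call. Gsta4 was at 44.4 and 69.2 FPKM with DMSO, 60.9 and 59.1 FPKM with acetate and 19.6 and 9.15 FPKM with crotonate (-1.96, 95% interval -2.92 to -1.01, adjusted p = 0.0818 against DMSO). Sod1 was at 256 and 319 FPKM with DMSO, 759 and 245 FPKM with acetate and 151 and 90.9 FPKM with crotonate (-1.28, adjusted p = 0.282). Txnip was at 62.3 and 72.0 FPKM with DMSO, 10.0 and 53.2 FPKM with acetate and 13.6 and 8.84 FPKM with crotonate (-2.50, adjusted p = 0.127). In total, 14 of 38 members lay lower in both crotonate libraries than in both DMSO libraries and 9 higher, where 38.4% and 19.2% of all genes tested did. The mu-class transferase Gstm1 was the other way round, at 1.55 and 0.18 FPKM with DMSO, 5.45 and 5.07 FPKM with acetate and 8.42 and 6.33 FPKM with crotonate (2.26, adjusted p = 0.0714).

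Txnrd1 was at 10.8 and 10.8 FPKM with DMSO, 2.56 and 9.35 FPKM with acetate and 4.81 and 2.99 FPKM with crotonate (-1.29, adjusted p = 0.28 against DMSO). Txnrd3 was at 8.23 and 7.42 FPKM with DMSO, 1.26 and 7.92 FPKM with acetate and 2.96 and 2.41 FPKM with crotonate (-1.26, adjusted p = 0.353). In both genes, and in Txnip, replicate 1 of acetate lay with the crotonate libraries and replicate 2 with DMSO. Replicate 1 of acetate also had the highest FPKM total of the treatment experiment, 992596, and the highest mitochondrial share, 20.6%, and its part in these values was not tested. Without it, 8 members were called between crotonate and DMSO, beside 280 higher and 863 lower of all 13789 genes tested, among them Txnip (adjusted p = 0.0145), Prdx3 (0.02), Gstm1 (0.0371), Txnrd3 (0.0412), Gsta4 (0.0434), Txnrd1 (0.0474) and Sod1 (0.0484). Without replicate 2 of acetate, 6 members were called between crotonate and DMSO, beside 269 higher and 787 lower of all genes tested, and with the DMSO and crotonate libraries alone 8 were, beside 299 and 848. Without replicate 2 of acetate, 5 members were also called between acetate and DMSO, namely Txnip, Prdx1, Txnrd3, Txnrd1 and Gclm, beside 174 higher and 730 lower of all genes tested.

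Members that showed little difference between crotonate and DMSO included Gpx6 (0.01), Prdx1 (0.07), Glrx5 (0.10) and Sod2 (-0.12, 95% interval -0.78 to 0.54). With 2 libraries per group these intervals were wide, so values on both sides of 0 remain possible. Of the 74 genes of the 6 pathway lists tested in limma, none was called in crotonate against DMSO, acetate against DMSO or crotonate against acetate, and 10, 3 and 13 had an unadjusted p under 0.05. The siRNA and treatment experiments share no libraries. Of the 37 members tested in both, 26 (70.3%) had opposite signs for crotonate against DMSO and siEchs1 against siCon at E2C, where 65.8% of all 13013 genes tested in both did. The Pearson correlation of the 2 fold changes was -0.547 over these 37 members and -0.368 over all genes, as a description across genes that share libraries and are not independent. With acetate in place of crotonate, 23 of 37 members (62.2%) had opposite signs, beside 61.5% of all genes, and the Pearson correlation was -0.612 over the members and -0.25 over all genes.

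**Figure D5:**
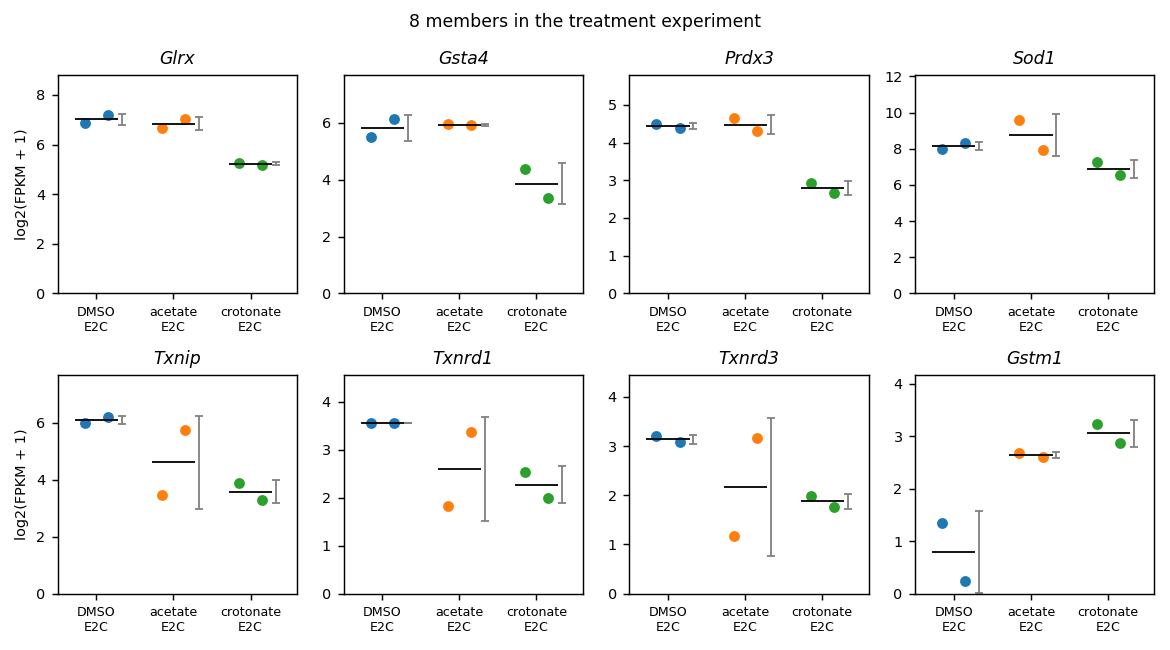
Values of 8 members in the DMSO, acetate and crotonate groups, as log2(FPKM + 1), with 1 point per library, a line at the group mean and a grey bar of ± 1 SD beside it (n = 2). For Glrx and Prdx3 both crotonate points lie below the 4 other points, while for Txnip, Txnrd1 and Txnrd3 replicate 1 of acetate lies with crotonate.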

How the data were processed

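RNA was measured with Smart-seq2 in 18 tubes of pooled mouse embryos. The authors deposited 1 table per library with an FPKM value for each of 55335 genes. The submitters' processing notes name cutadapt 1.16, STAR and mm10, and the STAR version, annotation and FPKM program were not given in the sources used here. No counts or read depths were used, so depth is unknown. Where the titles and column headers of siEchs1 L2C replicates 2 and 3 disagreed, the titles were used.

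The fits used 55098 genes, after removal of 107 repeated symbols (216 entries) and of 24 that read as dates. Values were taken as log2(FPKM + 1). Genes at 1 FPKM or more in at least 3 of the 12 siRNA libraries (17652) or 2 of the 6 treatment libraries (13789) were tested with limma 3.58.1 in R 4.3.3, with a trend and robust variances, 1 fit per experiment, and Benjamini-Hochberg adjustment over all genes tested. Of the members, 47 and 38 passed this filter. The 9 not tested in the siRNA experiment were Cat, Gpx5, Gpx8, Gstm2, Gstm3, Gstm7, Gstt1, Prdx6b and Sod3. The fit was tested on simulated data. At most 0.215% of values were equal between replicate libraries.

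The members and lists were chosen with earlier results of these data known. Genes were named from a core list, the 2 most abundant of each transferase class, up to 8 called members per direction and up to 3 genes per pathway list, and Gsta3, Gpx2, Gstt4 and Gstm1 were named after their values were seen. Alternatives were another pseudocount, no filter, quantile normalization, rescaling without mitochondrial and ribosomal RNA, a replicate block, no trend, the compared libraries alone and leaving out each library.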

Additional observations from a re-analysis of the deposited data

Results flagged for a closer look

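The effect of siEchs1 differed between L2C and E2C, by the interaction term in limma, for 11 members. The values below are the L2C effect minus the E2C effect on the log2(FPKM + 1) scale, with the adjusted p. Among the transferases, the difference was 2.68 for Gstk1 (0.00719), 2.66 for Gsto2 (0.018), 2.36 for Gstm5 (0.0159) and -1.53 for Gstp3 (0.0448). Glutathione synthesis and reduction gave -2.41 for Gsr (0.014) and -1.77 for Gclc (0.0168). The peroxidases gave 2.26 for Gpx6 (0.0372) and -1.96 for Gpx3 (0.0355), and Prdx1 gave 2.14 (0.0106). Sod2 gave -1.71 (0.015) and Glrx 3.65 (0.0354).

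Of these 11, 6 kept their call under every alternative run, a count not made over all genes tested. The calls for Glrx, Gpx3, Gpx6, Gsto2 and Gstp3 were each lost under at least 1 of them.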

How the results depend on the processing

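No called member changed direction under any alternative. At E2C, 8 members were called for siEchs1 against siCon, 5 with no filter and 4 with the compared libraries alone. For the difference of the siEchs1 effect, 11 were called and 7 with no filter. From E2C to L2C in siEchs1, 6 were called, 3 with no filter and 1 with the compared libraries alone. For crotonate against DMSO, 1 was called, 8 with the compared libraries alone, and 0 under the pseudocount of 0.1, no filter, quantile normalization, rescaling, the replicate block and no trend. For crotonate against acetate, 2 were called, 1 under the pseudocount of 0.1, and 0 under no filter, quantile normalization, rescaling, the replicate block, no trend and the compared libraries alone. The cause was not tested. Over all genes tested, higher and lower calls at E2C went from 1934 and 1644 to 532 and 821 with the compared libraries alone and 4052 and 2444 without siEchs1 E2C replicate 3. From E2C to L2C in siEchs1 they went from 2090 and 482 to 516 and 50 with the compared libraries alone, for the difference from 997 and 2042 to 589 and 1280 with no filter, and for crotonate against DMSO from 29 and 44 to 299 and 848 with the compared libraries alone and 7 and 2 with no filter. For crotonate against acetate they went from 141 and 116 to 8 and 1 with no filter.

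Leaving out 1 library gave 5 to 16 called members for siEchs1 against siCon at E2C, 25 to 36 at L2C, 6 to 16 for their difference, 22 to 30 from E2C to L2C in siCon and 3 to 9 in siEchs1. It gave 0 to 8 for crotonate against DMSO, 0 to 5 for acetate against DMSO and 0 to 6 for crotonate against acetate, with 0 in each when DMSO replicate 1 was left out. In the siRNA comparisons the most calls came without siEchs1 E2C replicate 3. Over all genes tested, higher and lower calls were then 4849 and 5459 at L2C, 7256 and 3276 from E2C to L2C in siCon and 2556 and 897 in siEchs1. Where the fewest members were called, they were 3325 and 4220 at L2C (without siCon L2C replicate 1) and 5530 and 2069 in siCon (without siCon E2C replicate 1). In siEchs1 they were 1015 and 159 (without siEchs1 L2C replicate 1). Calls kept under every alternative numbered 2 of 8 at E2C and 23 of 31 at L2C, a count not made over all genes tested.

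With the replicate block, 6 members were called at E2C, 31 at L2C, 10 for the difference, 27 from E2C to L2C in siCon, 4 in siEchs1 and 0 in each treatment comparison. Over all genes tested, higher and lower calls were then 1698 and 1471, 3729 and 4577, 826 and 1629, 6146 and 2439, and 1826 and 387 in the siRNA comparisons. They were 30 and 39 for crotonate against DMSO, 3 and 9 for acetate against DMSO and 103 and 70 for crotonate against acetate. Deviations of same-numbered libraries from their group means correlated at -0.101 to 0.111 in the siRNA experiment. Those of differently numbered libraries correlated at -0.155 to 0.224 there. In the treatment experiment the same-numbered correlations were -0.0957 to 0.16. Deviations within a group cancel out, and in the treatment experiment they are mirror images. These correlations therefore cannot decide whether same-numbered libraries belong together.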
